A study of Mus musculus with 10 samples.

Results

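The mRNAs of fatty acid elongases and desaturases in iBAT, the interscapular brown fat depot that produces heat, were followed in ΔGm15551 and wild type mice. The 9 members were taken by gene symbol out of 54347 gene records: the elongases Elovl1, Elovl3, Elovl4, Elovl5, Elovl6 and Elovl7 and the desaturases Fads1, Fads2 and Fads3. The rule that names them uses no measured value. All 9 passed the filter on low counts that left 13732 genes for testing. Elovl2, the elongase of long polyunsaturated fatty acids best known from liver, is not among them and was listed at 0 to 4 counts per mouse.

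The tissue came from 5 ΔGm15551 mice (replicates 1, 2, 4, 5 and 7) and 5 wild type mice (replicates 2, 3, 5, 6 and 7). ΔGm15551 mice carry a CRISPR/Cas9 germline deletion that takes in exon 1 of the lncRNA gene Gm15551, which is not restricted to adipocytes. Mice of both genotypes were on the C57BL/6N background, 12 weeks old, fed chow and kept alone at 4 °C for 24 h before dissection. Every mouse was exposed to the cold, and the levels below therefore describe the cold-exposed tissue with no warm group beside it. Gm15551 itself was listed at 0 in all 5 ΔGm15551 mice and at 1, 2, 6, 7 and 0 counts in wild type replicates 2, 3, 5, 6 and 7, where a count of 0 allows up to 3 counts. Wild type replicates 5, 6 and 7 carry mouse numbers from a higher series than the other 7 mice, and this series holds no ΔGm15551 mouse. Totals ran from 9680976 to 15771170 counts per mouse.

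ELOVL enzymes catalyse the first and rate-limiting step of fatty acid elongation in the endoplasmic reticulum, the condensation of a fatty acyl-CoA with malonyl-CoA, and each has its own preferred chain length and degree of unsaturation. FADS1 and FADS2 place double bonds in polyunsaturated fatty acids and alternate with ELOVL5 in the synthesis of arachidonic and docosahexaenoic acid, while FADS3 acts on the sphingoid base of sphingolipids. In brown fat Elovl3 is a classical cold-induced gene, and Elovl6, which lengthens palmitate to stearate, is a target of SREBP-1c.

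No difference between the genotypes was called for any member. After Benjamini-Hochberg adjustment, 0 of the 9 members were under the threshold of 0.05 by edgeR's quasi-likelihood test, against a background of 0.0% of the 13732 genes. At an unadjusted p under 0.05 the count was again 0 of 9, where 219 genes (1.59%) passed, and DESeq2 (228 genes, 1.66%) and limma-voom (248 genes, 1.81%) also passed 0 members. The values of the groups overlapped for all 9 members, while 44 of the genes tested (0.32%) had groups that did not. The log2 fold change (log2FC, ΔGm15551 minus wild type) was positive for 4 members and negative for 5, with a median of -0.04, beside -0.00 over all genes tested. Its 95% confidence interval lay within -1 and 1 for 7 members and within -0.5 and 0.5 for 6, as it did for 12391 and 7575 of all genes tested. The exceptions at the wider bound were the low-count genes Elovl4 and Elovl7. The plot of log2FC values shows how wide each interval is.

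**Figure D1:**
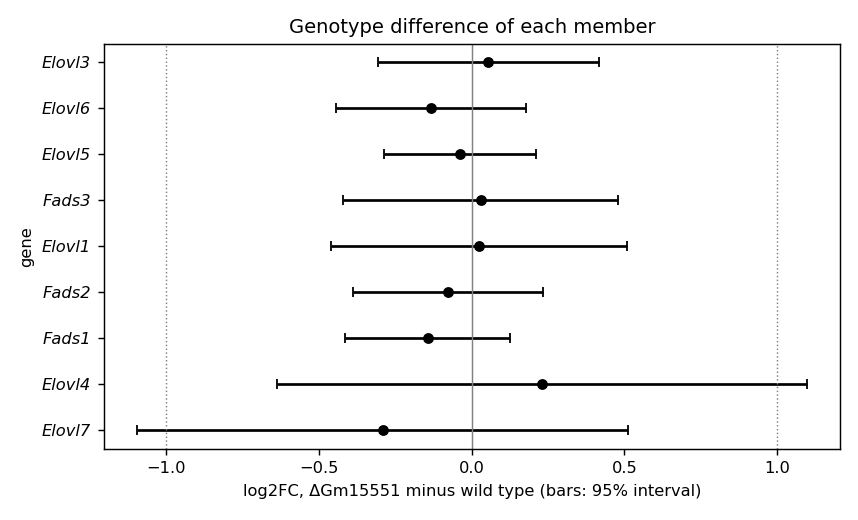
Log2FC of each member (x axis, ΔGm15551 minus wild type, n = 5 mice each) with its 95% confidence interval from edgeR's quasi-likelihood fit, genes in order of level. All 9 intervals include 0, and only those of Elovl4 and Elovl7 pass the dotted lines at -1 and 1.

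Elovl3 and Elovl6 were the most abundant members by far. Levels of different genes were compared as CPM (counts scaled to a common depth by TMM) per kb of merged exon. On that scale the mean over the 10 mice was 629 for Elovl3, 204 for Elovl6 and 35.5 for Elovl5. Fads3 followed at 8.93, Elovl1 at 5.46, Fads2 at 3.79 and Fads1 at 2.97. Elovl4, the elongase of the ultra-long chains of retina, skin and brain, stood at 0.598, and Elovl7, which lengthens saturated very long chains, at 0.324. All 8 neighbours in this order differed by an exact sign-flip permutation test over the 10 mice (adjusted p from 0.0026 to 0.00977, adjusted over the 8). The order was taken from the same mice, so these p-values measure how steady each step was between mice, not the length scaling. Elovl3 was 3.06 times Elovl6 per kb and was above it in 10 of 10 mice. By CPM without length Elovl6 had the higher mean (1315 against 1242 CPM). The narrowest step was that from Fads2 to Fads1 (1.27-fold, 9 of 10 mice). With the longest transcript as the length in place of merged exons, these 2 genes changed places and no longer differed (1.05-fold, exact sign-flip test, adjusted p = 0.299), so their order is not settled by these data.

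**Figure D2:**
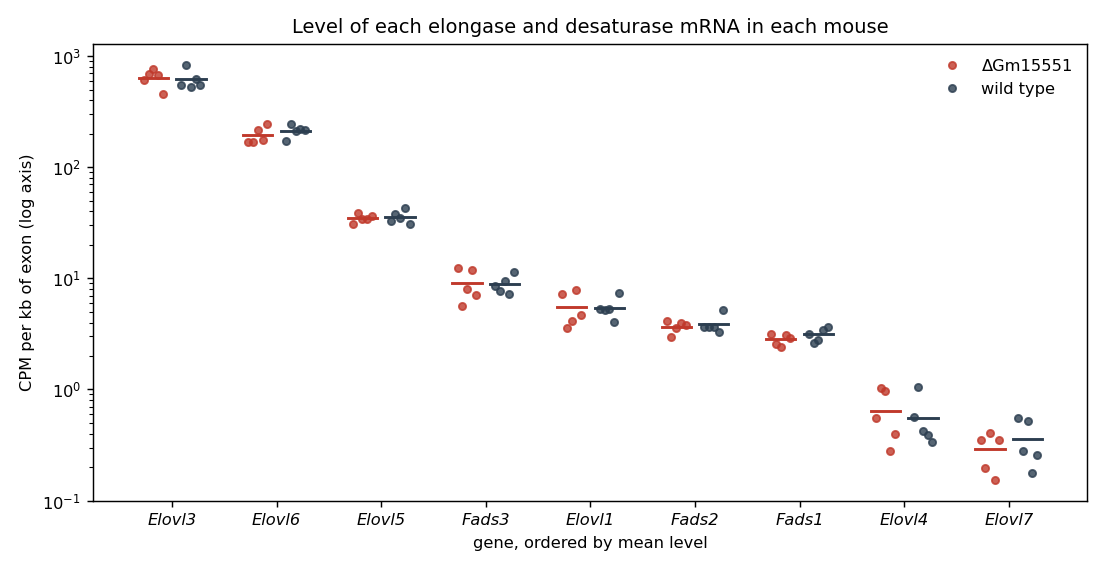
Level of each member in CPM per kb of merged exon (log axis), 1 point per mouse in order of replicate number, with the group mean as a bar, for ΔGm15551 (red) and wild type (dark). The points span from 0.153 (Elovl7) to 835 (Elovl3), and the 2 genotypes overlap at every gene.

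Elovl3 (ENSMUSG00000038754, chromosome 19, 46131897 to 46135694, plus strand, GRCm38), which lengthens saturated and monounsaturated chains, ranked 77 of 13732 genes by mean CPM. Its level was 1210.2, 1372, 1507, 1334 and 906 CPM in ΔGm15551 replicates 1, 2, 4, 5 and 7. In wild type replicates 2, 3, 5, 6 and 7 it was 1084, 1649.5, 1046, 1239 and 1077 CPM. The lowest of all mice was ΔGm15551 replicate 7 and the highest wild type replicate 3, with the other ΔGm15551 mice inside the range of wild type. The means were 1266 ± 227 and 1219 ± 252.1 CPM (SD, n = 5 each), a log2FC of 0.05 (SE 0.17, 95% interval -0.31 to 0.42).

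Elovl6 (ENSMUSG00000041220, chromosome 3, 129532355 to 129638495, plus strand) is the member on the same chromosome as Gm15551, 2.86 Mb away, and ranked 67 by mean CPM. ΔGm15551 replicates 1, 2, 4, 5 and 7 had 1087, 1095, 1403, 1128 and 1561 CPM. The wild type mice, in the order above, had 1113, 1585, 1359, 1432 and 1386 CPM. Replicates 1 and 2 of ΔGm15551 lay just under the lowest wild type mouse, and replicate 7 lay near the top. The means were 1255 ± 215 and 1375 ± 171 CPM (SD, n = 5 each), a log2FC of -0.13 (SE 0.14, 95% interval -0.44 to 0.18). Elovl6 shares 6.41% of its 31-base words with other genes, against at most 0.729% in any other member, so a part of its reads can fit elsewhere.

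Counted per kb, Elovl3 and Elovl6 together made up 95.2% of all elongase mRNA, with little difference between mice (94.4% to 96.1%). Elovl3 alone held 71.5% of this pool, Elovl6 23.6% and Elovl5 4.1%, and the other 3 elongases each held under 1%. Among the desaturases Fads3 held 56.3%, Fads2 24.4% and Fads1 19.3%. No difference of an elongase share between genotypes was called by exact permutation tests over all assignments of the mice (two-sided). ΔGm15551 mice had 72.6% ± 6.14 of the pool as Elovl3 and wild type mice 70.4% ± 2.71 (SD over 5 mice per genotype, exact permutation p = 0.492). For Elovl6 the shares were 22.6% ± 5.71 and 24.7% ± 2.36 (exact permutation p = 0.484), and for Elovl5 4.03% ± 0.579 and 4.16% ± 0.550 (exact permutation p = 0.667).

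**Figure D3:**
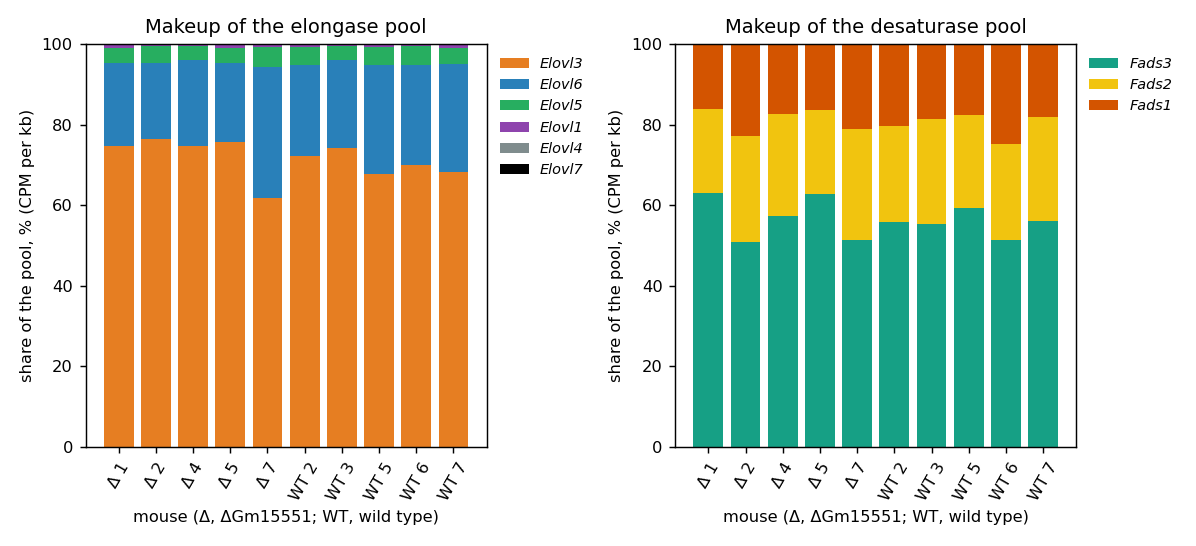
Makeup of the elongase pool (left) and of the desaturase pool (right) in each mouse, as the percentage of summed CPM per kb held by each gene. Elovl3 holds 61.7% in ΔGm15551 replicate 7 and between 67.7% and 76.5% in the other 9 mice, and Fads3 holds over 50% of the desaturase pool in every mouse.

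In the balance between the 2 leading elongases no genotype difference was called over all 10 mice, and its size depended on which mice were included. The log2 ratio of Elovl6 to Elovl3 was -1.86, -2.03, -1.81, -1.94 and -0.92 in ΔGm15551 replicates 1, 2, 4, 5 and 7. In wild type replicates 2, 3, 5, 6 and 7 it was -1.67, -1.76, -1.33, -1.49 and -1.34. Of the 5 ΔGm15551 mice, 4 thus lay below every wild type mouse, and replicate 7 lay above them all. With all 10 mice the difference was -0.19 (exact permutation p = 0.413). Without ΔGm15551 replicate 7, the mouse that stood apart in these same values, it was -0.39 and the groups no longer overlapped. The exact permutation p of 0.0159, not adjusted, is the smallest possible for 4 against 5 mice and only restates that lack of overlap. The difference in share was then 4.94 percentage points for Elovl3 and -4.60 for Elovl6, with the same exact permutation p. These shares come from the same 2 genes as the ratio. Wild type replicates 5, 6 and 7, of the higher number series, had the highest ratios among wild type. Without them, and with ΔGm15551 replicate 7 kept, the difference was 0.00. In the mice of the lower number series alone and without ΔGm15551 replicate 7, a choice made after the values were seen, the difference was -0.20 (4 against 2 mice, exact permutation p = 0.133, where the smallest possible is 0.0667).

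Elovl5 (ENSMUSG00000032349, chromosome 9, 77917364 to 77984519, plus strand), the elongase of polyunsaturated fatty acids, had the lowest spread between mice of the 9 members. Its level was 109, 137, 121, 122 and 128 CPM in ΔGm15551 replicates 1, 2, 4, 5 and 7, and 115, 134, 123, 151 and 109 CPM in wild type replicates 2, 3, 5, 6 and 7. The lowest mice were ΔGm15551 replicate 1 and wild type replicate 7, the highest wild type replicate 6. The log2FC was -0.04 (SE 0.11, 95% interval -0.28 to 0.21), a change of at most 1.16-fold up or 0.821-fold down at the ends of the interval. Within groups its log2 CPM had an SD of 0.16, below the 0.27 of the median gene tested.

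The 3 desaturases lie side by side on chromosome 19. Fads3 (ENSMUSG00000024664, 10041569 to 10060110, plus strand) and Fads2 (ENSMUSG00000024665, 10062765 to 10101746, minus strand) end 2.7 kb apart, and Fads1 (ENSMUSG00000010663, 10182888 to 10196877, plus strand) starts 81.1 kb beyond Fads2. Fads2, which sets the first double bond on the way to the long polyunsaturated fatty acids, was at 13.6, 9.66, 11.8, 12.96 and 12.5 CPM in ΔGm15551 replicates 1, 2, 4, 5 and 7. In wild type replicates 2, 3, 5, 6 and 7 it was at 12.1, 11.9, 11.9, 10.9 and 17.2 CPM. Wild type replicate 7 stood above all other mice and ΔGm15551 replicate 2 below them. The log2FC was -0.08 (SE 0.14, 95% interval -0.39 to 0.23). Without wild type replicate 7 it was 0.05.

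Fads1, which acts after Fads2 and ELOVL5 and makes arachidonic acid, measured 15.3, 12.3, 11.7, 14.7 and 14.02 CPM in the ΔGm15551 mice and 15.04, 12.5, 13.4, 16.6 and 17.6 CPM in the wild type mice, in the same order of replicates. The 2 lowest mice were ΔGm15551 and the 2 highest wild type. Its log2FC of -0.14 (SE 0.13, 95% interval -0.41 to 0.13) had the smallest unadjusted p of the 9 members, 0.271 in edgeR's quasi-likelihood test. The log2 ratio of Fads1 to Fads2 per kb averaged -0.38 ± 0.13 for ΔGm15551 mice and -0.31 ± 0.23 for wild type mice (SD over 5 mice per genotype, exact permutation p = 0.595).

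Elovl4 and Elovl7 rested on few reads, 10 to 44 and 8 to 29 counts per mouse. Elovl4 was at 1.69, 3.13, 2.90, 0.844 and 1.19 CPM in the ΔGm15551 mice and at 1.70, 3.17, 1.29, 1.17 and 1.03 CPM in wild type. ΔGm15551 replicates 2 and 4 and wild type replicate 3 were high, and the remaining 7 mice were all below 2 CPM. The log2FC was 0.23 (SE 0.40, 95% interval -0.64 to 1.10). Elovl7 ranged from 0.614 to 1.64 CPM in ΔGm15551 and from 0.716 to 2.24 CPM in wild type, with a log2FC of -0.29 (SE 0.37, 95% interval -1.09 to 0.51). A log2FC of 1 for Elovl4 and of -1 for Elovl7 thus lay inside the intervals at this depth.

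The 2 remaining members, Elovl1 and Fads3, varied between mice of both genotypes, and they varied together. Elovl1 (ENSMUSG00000006390, chromosome 4, 118428093 to 118432953, plus strand) makes the saturated very long chains used in sphingolipids. Its level was 19.7, 9.73, 11.2, 21.6 and 12.7 CPM in ΔGm15551 replicates 1, 2, 4, 5 and 7 and 14.3, 14.1, 14.3, 11.1 and 19.9 CPM in wild type replicates 2, 3, 5, 6 and 7. Fads3 was at 47.3, 21.5, 30.5, 44.9 and 26.8 CPM in the ΔGm15551 mice and at 32.4, 29.3, 35.6, 27.2 and 43.1 CPM in wild type. The same 3 mice, ΔGm15551 replicates 1 and 5 and wild type replicate 7, were highest for both genes, and ΔGm15551 replicate 2 was lowest for both. Elovl1 spanned 2.21-fold and Fads3 2.20-fold from the lowest to the highest mouse. By genotype the log2FC was 0.03 (SE 0.22, 95% interval -0.46 to 0.51) for Elovl1 and 0.03 (SE 0.21, 95% interval -0.42 to 0.48) for Fads3.

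Over the 36 pairs of members, 2 passed an adjusted p of 0.05 for Pearson's r of log2 CPM (permutation test with 100000 resamples, two-sided, Benjamini-Hochberg over the 36), and 8 had an unadjusted p under 0.05. The first was Elovl1 with Fads3, at r = 0.94 (permutation p = 0.00017, adjusted p = 0.00612) and Spearman's rho = 0.89 (permutation p = 0.00114, adjusted p = 0.0205), n = 10 mice. The second was Elovl1 with Fads2, at r = 0.81 (permutation p = 0.00135, adjusted p = 0.0243) and rho = 0.89 (permutation p = 0.00112, adjusted p = 0.0205). Without ΔGm15551 replicates 2 and 5, the mice farthest from the median of Elovl1, r was 0.91 for Fads3 and 0.83 for Fads2, each with an adjusted permutation p of 0.106. In the 7 mice of the lower number series r was 0.94 and 0.82 (adjusted permutation p = 0.136 for both), and the higher series holds too few mice for a value of its own. On residuals from the genotype means r was 0.94 for Fads3 (adjusted permutation p = 0.00576) and 0.81 for Fads2 (adjusted permutation p = 0.0504).

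Elovl1 left a gap between the 3 highest mice (19.7 to 21.6 CPM) and the other 7 (9.73 to 14.3 CPM). Within those 7 mice r was 0.81 for Fads3 and 0.80 for Fads2 (adjusted permutation p = 0.200 for both), and rho was 0.79 for each. These 7 mice were set apart after the values were seen. Neither pair passes the threshold there, while the sign is the same. The pair in this subset that did pass was Elovl5 with Elovl7 (r = -0.94, adjusted permutation p = 0.0162), at r = -0.46 in all 10 mice, and Elovl7 rests on 8 to 29 counts.

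**Figure D4:**
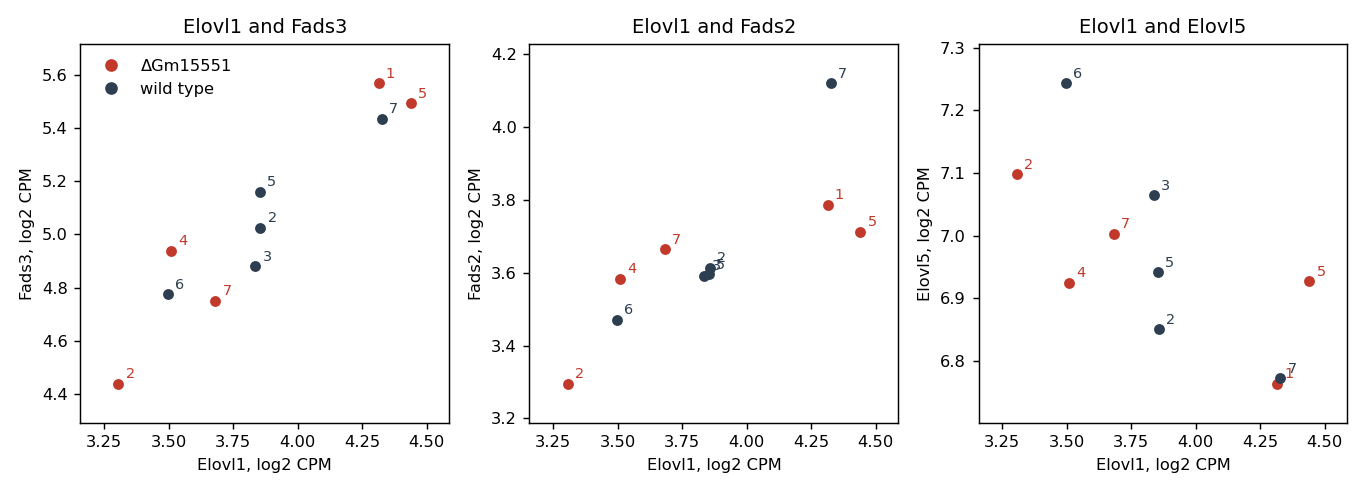
Log2 CPM of Fads3 (left), Fads2 (middle) and Elovl5 (right) against log2 CPM of Elovl1, 1 point per mouse labelled with its replicate number, ΔGm15551 in red and wild type in dark. Pearson's r over the 10 mice is 0.94, 0.81 and -0.71, and the 3 mice at the right of each panel are ΔGm15551 replicates 1 and 5 and wild type replicate 7.

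Elovl5 had negative correlations with these genes, and in all 10 mice none of its pairs passed the adjusted threshold. Its r was -0.77 with Fads3 (adjusted permutation p = 0.0741), -0.75 with Fads2 (adjusted permutation p = 0.0881) and -0.71 with Elovl1 (adjusted permutation p = 0.0989). The neighbours Fads2 and Fads3 had r = 0.78 (adjusted permutation p = 0.0602). With library totals in place of TMM this pair passed (r = 0.83, adjusted permutation p = 0.0157). The 2 abundant elongases showed no relation that could be detected, with r = -0.02 for Elovl3 with Elovl6.

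Markers of some other cells moved with Elovl1 and Fads3. The summed level of 5 endothelial markers, all detected in every mouse, was 1308, 1137 and 1222 CPM in the 3 mice high in Elovl1 and Fads3. In the other 7 mice it was between 727 and 1081 CPM (range 765 to 1308 in ΔGm15551 and 727 to 1222 in wild type). The summed level of 4 Schwann cell and nerve markers, all detected in every mouse, was 129, 148 and 86.9 CPM in the same 3 mice and 37.8 to 99.7 CPM in the others (range 37.8 to 148 in ΔGm15551 and 44.9 to 99.7 in wild type). Skeletal muscle markers, with 5 to 10 of 10 detected, were at 824, 75.02 and 3027 CPM in the 3 mice and at 1.35 to 1957 CPM in the others (range 1.35 to 1957 in ΔGm15551 and 1.56 to 3027 in wild type). The 5 red blood cell markers, all detected in every mouse, summed to 1751, 1435 and 2544 CPM in the 3 mice and to 614 to 1084 CPM in the others (range 934 to 1751 in ΔGm15551 and 614 to 2544 in wild type). Of these lists, only the endothelial and red blood cell sums were higher in all 3 mice than in every other mouse. The Schwann cell and nerve sums and the skeletal muscle sums overlapped those of the others. Macrophage markers did not separate the 3 mice either, at 65.2, 39.6 and 58.4 CPM in them and 36.5 to 71.5 CPM in the others. Fibroblast markers summed to 336, 229 and 233 CPM against 172 to 396 CPM, and white adipocyte markers to 95.1, 76.5 and 106 CPM against 28.5 to 109.6 CPM. Endothelial markers also moved with Elovl5: its 2 lowest mice, ΔGm15551 replicate 1 and wild type replicate 7, had the 2 highest endothelial sums, and its highest mouse, wild type replicate 6, the lowest (727 CPM). Skeletal muscle markers were at 824 and 3027 CPM in its 2 lowest mice and at 1.56 CPM in its highest. Fads2 was highest in wild type replicate 7, where endothelial markers summed to 1222 CPM, red blood cell markers to 2544 CPM and skeletal muscle markers to 3027 CPM. In ΔGm15551 replicate 2, the mouse lowest in Fads2, these sums were 765, 1084 and 1.35 CPM. Only the muscle sum was the lowest of all mice there. The red blood cell sum was the highest outside the 3 mice high in Elovl1 and Fads3. The part of these cells in the levels of Elovl1, Fads2, Fads3 and Elovl5 was not tested, and in whole tissue fewer cells of a type and less RNA per cell cannot be told apart. The 6 brown adipocyte and 6 common adipocyte markers were detected in every mouse, at summed levels of 9286 to 13985 and 25515 to 30509 CPM. The brown adipocyte sum was lowest in 2 of the 3 mice (9286 and 9480 CPM, in ΔGm15551 replicate 1 and wild type replicate 7) and 12625 CPM in ΔGm15551 replicate 5. The common adipocyte sum did not separate these 3 mice, at 28545, 25525 and 28945 CPM. The mean log2 CPM of the same 6 markers, which weights each gene equally, was 10.62, 10.705 and 10.505 in these 3 mice, in the order used above, and 10.70 to 10.85 in the others. It was lowest in the 2 mice lowest in Elovl5 (10.62 and 10.505) and 10.80 in the highest, and it was 10.505 in the mouse highest in Fads2 and 10.82 in the lowest. Of 3 skin epithelium markers 1 to 2 were detected per mouse, at summed levels of 2.31 to 3.96 CPM, and Krt14 was at 0 in all mice.

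Transcript length and base composition also moved with these genes. The mean log2 CPM of the genes with the longest transcripts (above the upper quartile) minus that of the shortest (below the lower quartile), set to a mean of 0 over the mice, was -0.10, -0.21 and -0.19 in the 3 mice high in Elovl1 and Fads3 and -0.01 to 0.21 in the others. The same difference between the genes richest and poorest in G and C was 0.06, 0.46 and 0.16 in the 3 mice and -0.43 to 0.06 in the others. No genotype difference was called for either index (exact permutation p = 0.627 for length and 0.468 for GC). After the trends on GC content and length were removed in each mouse, r was still 0.94 for Elovl1 with Fads3 (adjusted permutation p = 0.0054). It was 0.70 for Elovl1 with Fads2 (adjusted permutation p = 0.161). The negative values of Elovl5 with Fads3, Fads2 and Elovl1 became -0.55, -0.66 and -0.48.

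**Figure D5:**
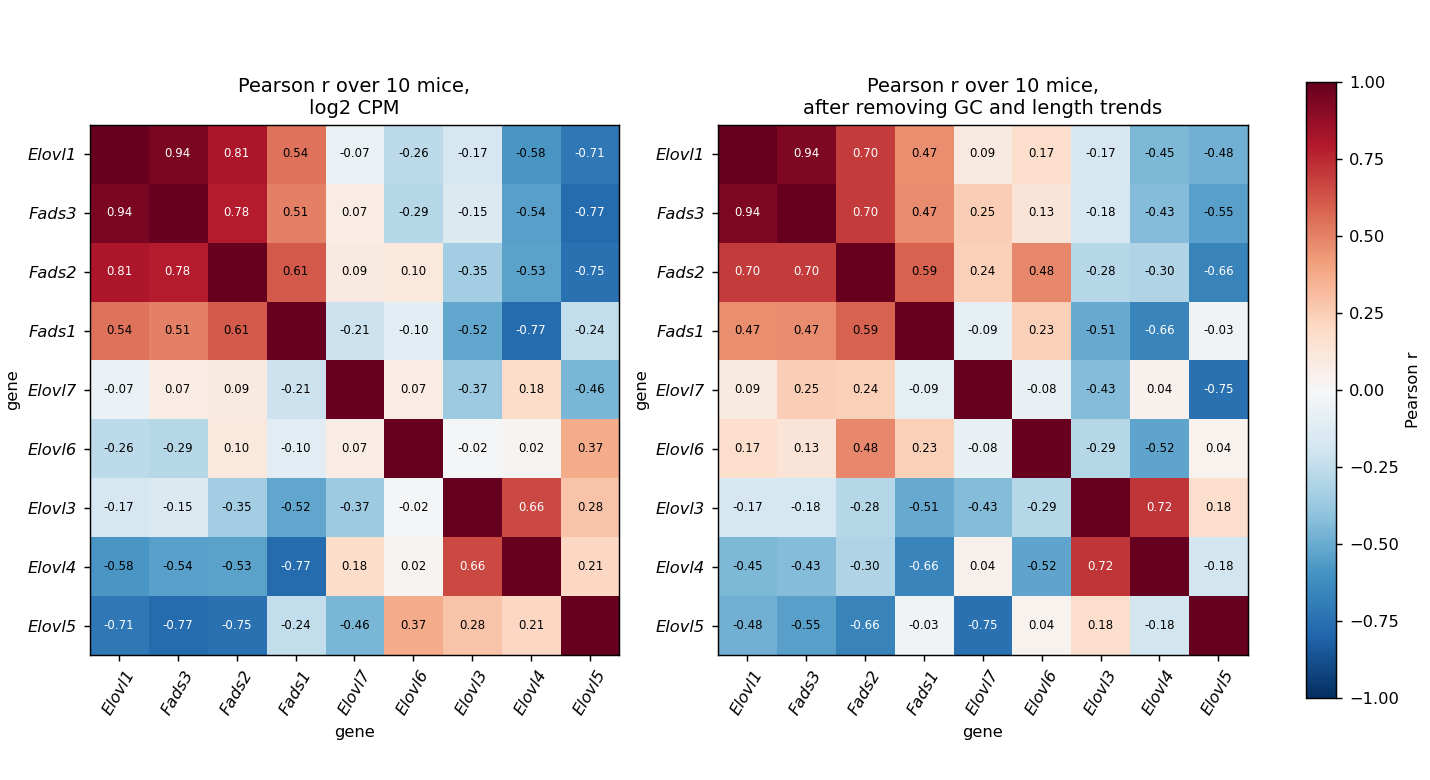
Pearson's r of log2 CPM over 10 mice for all 36 pairs of members (colour scale from -1 to 1), as measured (left) and after trends on GC content and transcript length were removed in each mouse (right). Elovl1 with Fads3 is at 0.94 on both sides, and Elovl1 with Fads2 is at 0.81 on the left and 0.70 on the right.

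The bases upstream of the RefSeq start of Elovl1 and Fads3, which moved together, and of Elovl5, whose negative correlations with them did not pass the threshold, are given below from the RefSeq promoter table of GRCm38.p6. Each is written 5′ to 3′ on the plus strand, which is the strand of all 3 genes, and annotated exon bases are left out. Capitals mark the CCAAT box (CCAAT, or ATTGG on the other strand), the GC box (GGGCGG or CCGCCC) and the E-box (CACGTG).
Elovl1, chr4:118427843-118428092: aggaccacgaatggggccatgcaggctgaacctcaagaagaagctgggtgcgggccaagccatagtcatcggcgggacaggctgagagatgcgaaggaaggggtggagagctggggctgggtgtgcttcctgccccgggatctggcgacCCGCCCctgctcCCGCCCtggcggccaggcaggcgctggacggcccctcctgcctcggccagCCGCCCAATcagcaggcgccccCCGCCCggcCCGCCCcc
Fads3, chr19:10041298-10041547: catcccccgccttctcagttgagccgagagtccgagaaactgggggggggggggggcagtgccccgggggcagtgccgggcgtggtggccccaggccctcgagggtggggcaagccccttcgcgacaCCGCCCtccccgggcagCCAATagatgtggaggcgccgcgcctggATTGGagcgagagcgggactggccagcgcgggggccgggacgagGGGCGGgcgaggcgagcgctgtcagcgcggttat
Elovl5, chr9:77917115-77917363: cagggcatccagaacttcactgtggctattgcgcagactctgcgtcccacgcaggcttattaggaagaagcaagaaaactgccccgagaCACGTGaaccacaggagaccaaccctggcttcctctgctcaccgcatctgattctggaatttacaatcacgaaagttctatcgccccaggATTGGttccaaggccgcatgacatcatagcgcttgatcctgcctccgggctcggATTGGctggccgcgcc
The stretch shown for Elovl1 had 5 GC boxes and 1 CCAAT box, which overlaps a GC box, and the table holds another start of Elovl1, whose window had 2 GC boxes and no CCAAT box. Fads3 had 2 of each. Elovl5 had 2 CCAAT boxes, an E-box at position -161 from its start and no GC box. For comparison, 32851 RefSeq promoter windows were searched over their first 250 bases (249 to 250 in the stretches shown). Of the windows 33.8% held a CCAAT box, 32.7% a GC box and 6.0% an E-box on either strand, so the first 2 are common. The sterol response element TCACNCCAC (1.1% of windows) and the cyclic AMP response element TGACGTCA (1.5%) had no match in the stretches shown. Of the 9 members 7 matched the table, and Elovl3 and Fads1 did not. These matches of letters are a description of the windows only.

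Of the regulators known for these genes, 6 were set against the members over the mice (54 pairs, adjusted together). Srebf1, which encodes SREBP-1c, passed with none of the 9 members (r = 0.54 with Elovl6, adjusted permutation p = 0.265). Ppara, the fatty acid sensor of oxidative tissues, had r = -0.89 with Fads2 (permutation p = 0.00214, rho = -0.90, permutation p = 0.00075) and r = -0.80 with Fads1 (permutation p = 0.00221, rho = -0.73, permutation p = 0.0204). Mlxipl, which encodes the glucose-responsive factor ChREBP, had r = -0.87 with Elovl4 (permutation p = 0.0015, rho = -0.85, permutation p = 0.00296). These 3 pairs had an adjusted permutation p of 0.0398 each for r, and 13 of the 54 pairs had an unadjusted p under 0.05. For rho only Fads2 with Ppara passed, at an adjusted permutation p of 0.0405, beside 0.184 for Fads1 with Ppara and 0.0799 for Elovl4 with Mlxipl. Wild type replicate 7 had the highest level of both Fads2 and Fads1 and the marker levels given above, and their part in these relations was not tested. The relation of Ppara with the desaturases was weaker without the mice farthest from the median. It was at r = -0.52 with Fads2 without ΔGm15551 replicate 2 and wild type replicate 7, and at r = -0.61 with Fads1 without ΔGm15551 replicate 4 and wild type replicate 7. For Mlxipl with Elovl4 r was -0.79 without ΔGm15551 replicate 2 and wild type replicate 3. In the 7 mice of the lower number series r was -0.73, -0.88 and -0.88 for the 3 pairs, each with an adjusted permutation p of 0.3001. After the trends on GC content and length were removed, 0 of the 54 pairs passed. For the same 3 pairs r was then -0.82, -0.81 and -0.79 (adjusted permutation p = 0.123, 0.0911 and 0.0911).

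The genes whose log2 CPM followed each member most closely over the 10 mice were looked up among the 13082 genes that averaged 1 CPM or more, as a likeness with no test. Elovl5 was followed by Epb41l2 (r = 0.98), Aldh1a7 (r = 0.97) and Gsta4 (r = 0.96). Fads3 was followed by St6galnac4, a sialyltransferase gene, by Itgb4, an integrin gene, and by Flna, the gene of filamin A (r = 0.98, 0.98 and 0.96). Elovl1 was followed by Atp5l, Plekhg2 and Rpl31-ps8 (r = 0.98, 0.97 and 0.97). For Elovl6 the closest were Rac1, Ebf3 and Ube2l3 (r = 0.94, 0.94 and 0.89), and for Elovl3 they were Ap2b1, Zfp2 and Lctl (r = 0.91, 0.89 and 0.88). Fads2 had Gm10277, Ap4s1 and Mrpl51 (r = 0.98, 0.96 and 0.95), Fads1 had Paxx, Atp2b4 and Tmem50a (r = 0.94, 0.92 and 0.91). The low-count genes Elovl4 and Elovl7 had their closest matches at r = 0.93 each, with 4932438A13Rik and Ctc1.

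No genotype difference was called in the pathway around the members either. Of 62 listed genes 54 were tested, and by edgeR's quasi-likelihood test 0 passed at an adjusted p and 0 at an unadjusted p, with a median log2FC of -0.00. Among the partners in the elongation cycle (6 of 7 tested, 0 called) log2FC ran from -0.15 for the dehydratase gene Hacd2 to 0.11 for its relative Hacd1. Among the electron donors (5 of 6 tested, 0 called) it ran from -0.00 for Cyb5r4 to 0.20 for the cytochrome b5 reductase gene Cyb5r3. The other desaturases and relatives (5 of 8 tested, 0 called) ran from -0.33 for Scd2 to 0.68 for Scd3, both stearoyl-CoA desaturase genes, and Scd3 had at most 24 counts in a mouse.

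Substrate supply (9 of 10 tested, 0 called) ran from -0.09 for Acsl4, which activates arachidonic acid, to 0.13 for Acacb, an acetyl-CoA carboxylase gene. Among users of the products (14 of 16 tested, 0 called) the lowest log2FC was -0.27 for Far1, which reduces fatty acyl-CoA to alcohols for ether lipids. Regulators (15 of 15 tested, 0 called) ran from -0.31 for Srebf1 to 0.26 for Ppard. Srebf1 came nearest to the threshold of all 54 genes, at 239 ± 43.7 CPM in the ΔGm15551 mice and 297 ± 55.7 CPM in the wild type mice (SD, n = 5 each) with 0.0652 as its unadjusted p by edgeR's quasi-likelihood test. It passed 0.05 unadjusted, and never adjusted, by DESeq2 and without ΔGm15551 replicate 7 or wild type replicate 7 (log2FC -0.32, -0.42 and -0.36).

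Annotated exons on the other strand overlap 3 members. Elovl1 shares exon bases with Cdc20 (9 to 34 counts per mouse), Elovl3 with Pitx3 (10 to 68) and Elovl6 with the antisense gene Gm35986 (13 to 53). Whether the counting used the strand is not given in the sources used here. These counts are few beside those of Elovl3 (10486 to 20258) and Elovl6 (12425 to 21994), and less so beside the 137 to 281 counts of Elovl1.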

How the data were processed

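The series holds poly A RNA-seq of iBAT from 10 mice. As the labels and the study's methods state, paired-end reads were trimmed with cutadapt and quantified with Salmon on GRCm38 (GENCODE M22), with versions not stated. The values deposited by the authors were expected counts (estimated counts) per gene, already whole numbers (the rounding step is not described), in 1 column per mouse without depth scaling. The members and gene lists were chosen with earlier results of these data known. Replicates are separate mice.

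The analysis used edgeR 4.0.16 under R 4.3.3 (filterByExpr with a minimum count of 10 and total of 15, TMM, robust quasi-likelihood fit with genotype alone, Benjamini-Hochberg over 13732 genes). The study used DESeq2 (here 1.42.0 as an alternative, beside limma-voom, limma 3.58.1). The common biological coefficient of variation was 0.229, and for the low-count genes depth limits the precision. A count of 0 was read as up to 3 counts, which covers counting error only. CPM are TMM-scaled, and log2 CPM has a prior count of 2. Gene positions, exons and lengths came from GENCODE M21 on GRCm38, where 99.5% of gene IDs were found. GC and length trends were removed by lowess (span 0.3), an alternative chosen after seeing the data, as was leaving out the 3 mice above the gap in Elovl1. Pairs of mice within a group differed by a chi-square of at least 11.3 per degree of freedom, so none of these pairs looked like 1 library. Genes named are the members, their closest 3 genes, the target, the extremes of each pathway list (1 is not reported here) with any at an unadjusted p under 0.05, and the regulators and markers listed for the tests; Cdc20, Pitx3 and Gm35986 were added for their overlap with members and Elovl2 as a family member. Alternatives were other scaling, filters, lengths and tests, a muscle score as covariate, leaving out each mouse or the higher number series, and a replicate block. Sex is not given in the labels used here.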

Additional observations from a re-analysis of the deposited data

Results flagged for a closer look

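Values of members and pools were searched for single mice that lie far from the rest of their group, by Dixon's ratio of the gap to the range (above 0.71 for 5 mice). Of the 28 groups searched, 4 held such a mouse, where chance gives about 1 in 20, or 1.4.

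In wild type replicate 7 Fads2 was at 17.2 CPM, with the other wild type mice between 10.9 and 12.1 CPM (Dixon's ratio 0.817). In the same mouse skeletal muscle markers summed to 3027 CPM, the highest of the 10 mice, and red blood cell markers to 2544 CPM, also the highest. Their part in the level of Fads2 was not tested.

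The other 3 values belong to ΔGm15551 replicate 7 and are not independent, since they come from the same pair of genes. The share of Elovl3 in the elongase pool was 61.7% there (74.7% to 76.5% in the other ΔGm15551 mice, Dixon's ratio 0.878). The share of Elovl6 was 32.6% (18.7% to 21.4%, ratio 0.811), and the log2 ratio of Elovl6 to Elovl3 was -0.92 (-2.03 to -1.81, ratio 0.800). This mouse had both the lowest Elovl3 (906 CPM) and the highest Elovl6 (1561 CPM) of its group, and of all mice it had the highest sum of brown adipocyte markers (13985 CPM) and the lowest of common adipocyte (25515 CPM), white adipocyte (28.5 CPM), Schwann cell and nerve (37.8 CPM) and macrophage markers (36.5 CPM). On the mean log2 CPM of each list it was the lowest mouse for white adipocyte (3.07), macrophage (2.25) and skeletal muscle markers (-2.04) and at neither end for brown adipocyte (9.11), common adipocyte (10.78) and Schwann cell and nerve markers (2.29). Their part in these values was not tested.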

How the results depend on the processing

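In all 21 alternatives to the fit across genes, 0 of 9 members passed at an adjusted or an unadjusted p, with no adjusted p below 0.937. Elovl6, Elovl7 and Fads1 had a negative log2FC in each of the 21, from -0.22 to -0.028, -0.94 to -0.082 and -0.20 to -0.017. The others, all short of the threshold, changed sign in some: leaving out 1 mouse gave -0.14 to 0.15 for Elovl1, -0.0165 to 0.19 for Elovl3, -0.0084 to 0.59 for Elovl4, -0.086 to 0.034 for Elovl5, -0.13 to 0.049 for Fads2 and -0.12 to 0.16 for Fads3. With limma-voom Elovl1 was at -0.012 and Fads3 at -0.0155. Without wild type replicates 5, 6 and 7 (the higher number series) Elovl3 was at -0.11, Elovl4 at -0.32 and Fads2 at 0.017. In the 6 mice whose replicate number occurs in both groups, without a block, Elovl1 was at -0.14, Elovl5 at 0.15 and Fads3 at -0.26. The order of levels had 8 differing neighbours without any 1 mouse and 7 with the longest transcript as the length. The cause of these changes was not tested.

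Without the higher number series the genotype difference was -0.513 percentage points for the share of Elovl3, 0.280 for that of Elovl6, 0.197 for that of Elovl5 and 0.0014 for the log2 ratio of Elovl6 to Elovl3. Leaving out 1 mouse gave 1.26 to 4.94 points for Elovl3, -4.60 to -1.12 for Elovl6 and -0.342 to 0.0376 for Elovl5. For the log2 ratios it gave -0.39 to -0.12 for Elovl6 to Elovl3 and -0.12 to 0.022 for Fads1 to Fads2.

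Of the pairs of members, 2 passed in the main count, 0 without the 2 farthest mice, 0 without the higher number series, 1 on residuals, 3 with library totals, 1 after GC and length trends and 1 without the 3 mice above the gap in Elovl1. Of the pairs with regulators, 3 passed, then 0, 0, 2 on residuals, 1 with library totals and 0 after GC and length trends. Fewer mice enter the first 2 settings. The pathway genes at an unadjusted p under 0.05 numbered 0 of 54 in the main fit, 1 with DESeq2 (1.85%, against 1.66% of all genes), 0 to 3 without 1 mouse (at most 5.56%, against 3.03% of all genes, without ΔGm15551 replicate 1) and 6 of 55 in the 6 mice without a block (10.9%, against 4.00%), with 0 at an adjusted p in every setting.

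Whether equal replicate numbers pair the mice is not given in the labels used here. Deviations from the group means correlated at -0.07, 0.05 and -0.39 for the 3 shared numbers 2, 5 and 7. Without other pairs for comparison, these values do not settle it. With the number as a replicate block in 6 mice, Elovl1 was at -0.20, Elovl5 at 0.15, Fads3 at -0.31 and Elovl7 at -0.94, the share of Elovl5 differed by 0.133 points and the log2 ratio of Fads1 to Fads2 by 0.061, and 4 of 55 pathway genes (7.27%, against 2.88% of all genes) had an unadjusted p under 0.05. The block changed no call of a member.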
